A study of Mus musculus with 18 samples.

Results

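The genes that drive the cell division cycle and copy the DNA were read in the livers of 18 male C57BL/6 mice, with 1 one-colour Agilent array per mouse. They were 40 genes listed by name and not by their measured values, though chosen with earlier results of these data known. They stand among 21153 genes with a probe, and 54 of the 39429 distinct probes carried them. Of the 40 genes, 8 act in G1, 11 in DNA synthesis (S) and 21 in G2 and mitosis. All mice went onto their diet at 6 weeks of age. LFD mice (n = 4) and LFD MTX50 mice (n = 5) ate a low fat diet, labelled as 10%, and HFD mice (n = 4) and HFD MTX50 mice (n = 5) ate a high fat diet, labelled as 60%. After 10 weeks of feeding, both MTX50 groups were given methotrexate at 50 mg/kg into the peritoneum for 5 rounds while the diet went on, and livers were taken 1 week after the last round. The strain was the only genetic background, only males were used, and whether LFD and HFD mice received a vehicle is not given in the sources used here. Each array measured RNA of whole liver, in which fewer cells of a type and less RNA per cell cannot be told apart.

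The cycle is run by cyclins bound to their kinases. In G1, D cyclins with Cdk4 and cyclin E with Cdk2 phosphorylate the retinoblastoma protein and free E2f factors such as E2f1, which switch on the genes of DNA synthesis: the Mcm helicase, the sliding clamp Pcna, ribonucleotide reductase (Rrm1, Rrm2) and thymidine kinase (Tk1). Later, cyclin A and cyclin B with Cdk1, the factor Foxm1 and the kinases Plk1, Aurka and Aurkb carry the cell through mitosis. Most hepatocytes of an adult liver rest outside the cycle and can enter it again when the liver loses mass. Methotrexate is an antifolate, and thymidylate synthase (Tyms), which dividing cells need, depends on folate.

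Mitotic genes are known for a promoter element called CHR, through which a repressor complex holds them silent in resting cells and through which Foxm1 acts in dividing ones. It often stands near a CCAAT box, while S phase genes often carry an E2F site. To show how far the genes share these letters, promoter windows were taken from RefSeq (GRCm38.p6), from 250 bases before to 50 bases after each gene's start. Of the 40 genes, 31 have such a window. Windows were searched on both strands for CHR as TTTGAA or TTCGAA, for CCAAT, and for the E2F words TTTCGCGC, TTTGGCGC, TTTCCCGC and TTTGCCGC. CHR letters stood in 12 of 16 mitotic, 2 of 10 S and 0 of 5 G1 members with a window, beside 19.2% of all 32851 windows. CCAAT stood in 14 of 16 mitotic, 8 of 10 S and 2 of 5 G1 members, beside 37.4% of all windows. An E2F word stood in 1 of 16 mitotic, 5 of 10 S and 1 of 5 G1 members, beside 2.26% of all windows. These matches describe letters and not occupied sites. The 160 bases that end just before the gene start follow for 7 mitotic genes and for Mcm5, an S gene, which the results below return to. Each runs 5′ to 3′ toward the gene, and capitals mark the matched letters on either strand.
Kif11 (chr19:37376222-37376381, plus strand): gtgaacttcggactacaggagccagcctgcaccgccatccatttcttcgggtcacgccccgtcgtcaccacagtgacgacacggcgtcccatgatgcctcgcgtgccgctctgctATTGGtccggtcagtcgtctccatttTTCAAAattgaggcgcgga
Top2a (chr11:99024190-99024349, minus strand): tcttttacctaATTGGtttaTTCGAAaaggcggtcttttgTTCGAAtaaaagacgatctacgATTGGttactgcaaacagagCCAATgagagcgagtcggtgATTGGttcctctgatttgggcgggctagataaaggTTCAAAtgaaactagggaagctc
Ube2c (chr2:164769769-164769928, plus strand): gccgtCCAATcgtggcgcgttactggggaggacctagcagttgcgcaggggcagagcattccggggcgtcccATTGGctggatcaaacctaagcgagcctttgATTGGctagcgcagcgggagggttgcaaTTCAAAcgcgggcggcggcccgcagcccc
Bub1b (chr2:118598051-118598210, plus strand): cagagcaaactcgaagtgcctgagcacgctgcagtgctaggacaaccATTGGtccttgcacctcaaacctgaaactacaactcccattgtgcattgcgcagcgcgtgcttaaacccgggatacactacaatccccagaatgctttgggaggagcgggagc
Mki67 (chr7:135716380-135716539, minus strand): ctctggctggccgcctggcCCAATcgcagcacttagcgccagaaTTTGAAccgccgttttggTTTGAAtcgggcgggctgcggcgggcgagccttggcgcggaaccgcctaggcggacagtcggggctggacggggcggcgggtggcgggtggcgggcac
Cdk1 (chr10:69352913-69353072, minus strand): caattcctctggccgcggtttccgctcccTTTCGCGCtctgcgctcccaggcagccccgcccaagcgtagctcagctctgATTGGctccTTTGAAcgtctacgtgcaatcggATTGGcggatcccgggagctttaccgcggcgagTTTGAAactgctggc
Ccnb2 (chr9:70421555-70421714, minus strand): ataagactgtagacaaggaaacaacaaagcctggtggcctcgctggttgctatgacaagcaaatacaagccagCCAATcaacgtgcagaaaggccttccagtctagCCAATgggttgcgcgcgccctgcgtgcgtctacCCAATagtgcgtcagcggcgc
Mcm5 (chr8:75109349-75109508, plus strand): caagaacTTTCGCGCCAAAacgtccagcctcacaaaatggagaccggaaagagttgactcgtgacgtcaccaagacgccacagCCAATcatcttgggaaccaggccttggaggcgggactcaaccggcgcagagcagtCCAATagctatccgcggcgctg
Kif11, Ube2c and Top2a hold CHR letters and CCAAT within these bases, Top2a with 3 CHR matches and 4 CCAAT matches. Mki67 has 2 CHR matches and 1 CCAAT match, and Cdk1 has 2 of each and an E2F word. Bub1b and Ccnb2 hold no CHR letters within the bases shown. Mcm5 has 2 overlapping E2F words in the capitals near its left end, and 2 CCAAT matches.

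Levels are log2 intensities minus the 75th percentile of the array, so that a level of 0 is that percentile. It lay between 1202.7 and 2263.0 over the arrays, 84.24 to 90.77% of the spots were well above background, and 0 spots were saturated. Testing took in each probe that 4 or more arrays showed well above background, and a gene was read on its brightest tested probe. In this way 51 of the 54 probes and 38 of the 40 genes were tested, and 45 of these probes were above background on every array. The exceptions were Cdc6, which loads the Mcm helicase onto DNA, and Bub1, a kinase of the spindle checkpoint. Both were above background only in HFD MTX50 livers, Cdc6 in mice 1, 4 and 5 and Bub1 in 2 of the 5 mice. A change is called where limma's adjusted p over all 35739 tested probes is below 0.05, and differences are on the log2 scale with their standard error (SE).

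Slides of 4 arrays follow the groups. LFD arrays fill slide 1 and LFD MTX50 arrays lie on slides 2 and 3. HFD arrays lie on slides 4 and 5 and HFD MTX50 arrays on slides 5 and 6, so that slide 5 holds 2 mice of each. Diet and slide therefore cannot be told apart, nor can methotrexate and slide in LFD mice. HFD MTX50 mouse 5 was the highest of its group for many mitotic genes, as described further on, and the values without it are given there.

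The first question was whether the high fat diet moved these genes. HFD livers differed from LFD livers for 12 of the 38 tested genes, with 10 higher and 2 lower. Kif11, Bub1b and Foxm1 among mitotic genes and Mcm5 among S genes rose, while Cdk4 and Tk1 fell. The 31.6% of members called stands beside 28.3% of all 19598 named genes called in this comparison (18% higher and 10.4% lower), so that the number of calls does not set the cell cycle apart from other genes. The calls came from 3 of 8 G1, 3 of 10 S and 6 of 20 mitotic genes, and all 6 mitotic ones were higher. With a change of at least 2-fold asked for as well, Bub1b alone of the 38 was called, beside 2.86% of all named genes, and an unadjusted p up to 0.015 with a 2-fold change also took 1 of the 38, beside 2.87%.

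**Figure D1:**
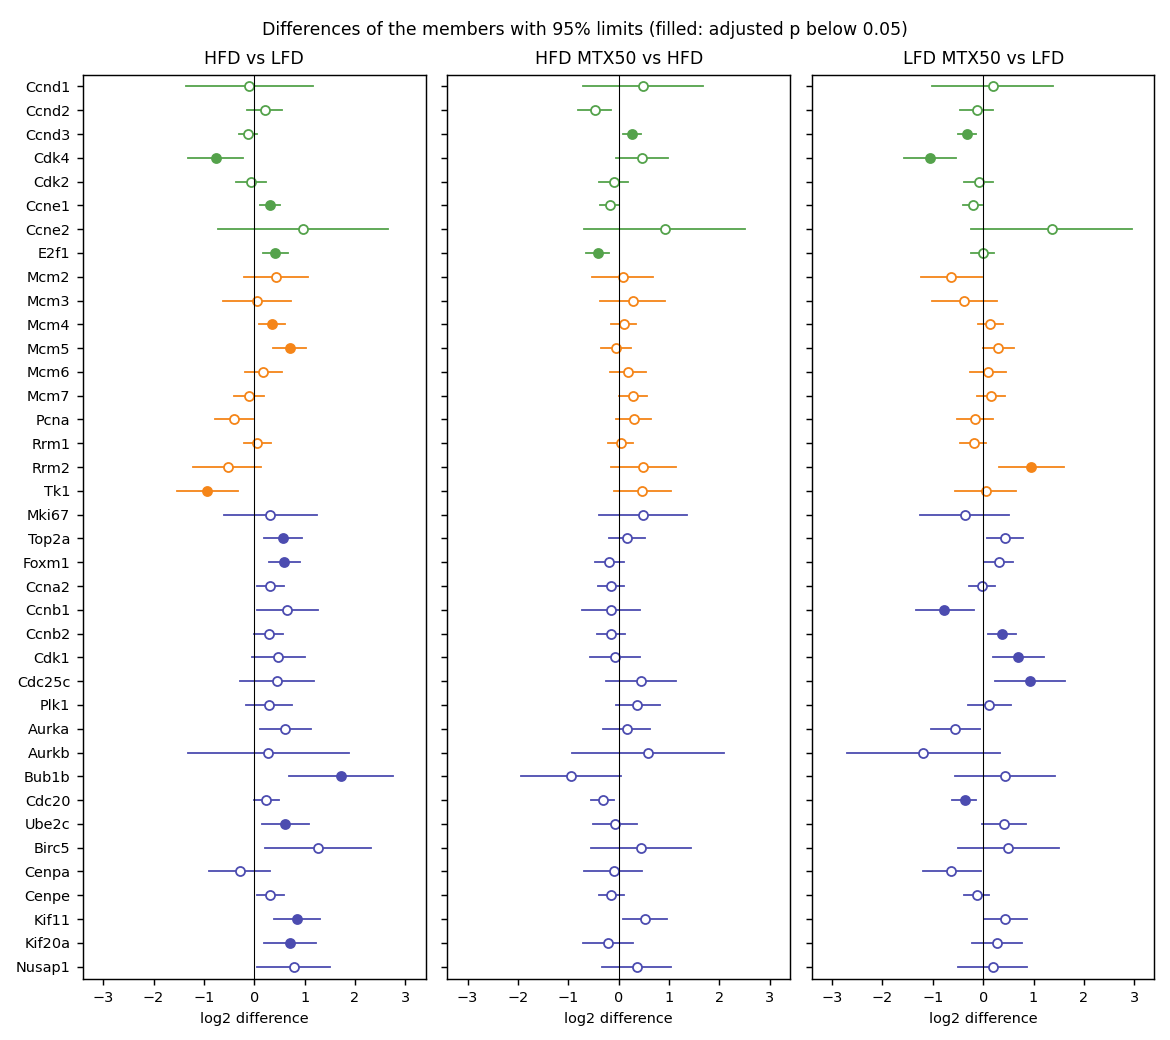
Log2 differences of the 38 tested genes (rows; G1 green, S orange, G2 and mitosis blue) in HFD against LFD, HFD MTX50 against HFD and LFD MTX50 against LFD livers, with 95% limits. Filled points have an adjusted p below 0.05: 12, 2 and 8 genes in the 3 panels. In the first panel 19 of 20 mitotic points lie right of 0, beside 10986 of all 19598 named genes.

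In G1, cyclin E1 (Ccne1), the partner of Cdk2 at the start of S phase, measured 0.63, 0.66, 0.61 and 0.41 in the LFD mice and 0.95, 0.81, 0.89 and 0.93 in the HFD mice. The 4 HFD values lay above the 4 LFD values, and Ccne1 rose by 0.32 (SE 0.09, adjusted p 0.020). A second, dimmer Ccne1 probe rose too, by 0.99 (adjusted p 0.0034). E2f1, the activator of S phase genes, measured −2.11, −2.27, −2.13 and −2.12 in LFD and −2.05, −1.75, −1.55 and −1.62 in HFD mice. Again no HFD value fell among the LFD values, and the rise was 0.42 (SE 0.11, adjusted p 0.015). Cdk4, the kinase of the D cyclins, measured 3.93, 4.15, 3.98 and 3.63 in LFD and 3.67, 3.39, 2.76 and 2.82 in HFD mice on its brightest probe. HFD mouse 1 lay within the LFD range, and the fall was −0.76 (SE 0.26, adjusted p 0.037). The other 2 Cdk4 probes differed by −0.07 and −0.13, neither called, so that the fall was seen on 1 of 3 probes. The D cyclins Ccnd1, Ccnd2 and Ccnd3, with Cdk2 and Ccne2, were not called, with differences of −0.12 for Ccnd3 to 0.97 for Ccne2, whose probe was above background on 1 of 4 LFD and 3 of 4 HFD arrays.

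Among S genes, Mcm5, a subunit of the replicative helicase, measured −0.99, −1.44, −1.63 and −1.39 in LFD and −0.72, −0.77, −0.60 and −0.53 in HFD mice. The groups did not overlap, and Mcm5 rose by 0.71 (SE 0.15, adjusted p 0.0064), a 1.63-fold difference. Mcm4, another subunit, measured −1.40, −1.66, −1.39 and −1.48 in LFD and −1.19, −1.16, −1.04 and −1.10 in HFD mice. Its groups did not overlap either, and it rose by 0.36 (SE 0.12, adjusted p 0.038). The remaining subunits Mcm2, Mcm3, Mcm6 and Mcm7 differed by −0.10 to 0.43 and were not called. Tk1, which salvages thymidine, measured 0.68, 0.62, 0.22 and 0.37 in LFD and 0.20, −0.11, −1.03 and −0.86 in HFD mice. HFD mouse 1 lay just below the lowest LFD mouse, mice 3 and 4 far below, and Tk1 fell by −0.93 (SE 0.28, adjusted p 0.026). Pcna and Rrm2 pointed the same way as Tk1 without a call, at −0.40 (adjusted p 0.092) and −0.53 (adjusted p 0.21), and their groups did not overlap. The median of the 10 S genes was 0.06, close to that of all genes (0.08), with rises and falls on either side, and under quantile normalization it was −0.04.

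The mitotic genes lay higher in HFD livers more evenly. Kif11, the motor that pushes spindle poles apart, measured −6.14, −6.61, −5.88 and −6.48 in LFD and −5.81, −5.39, −5.08 and −5.45 in HFD mice. Every HFD value was above every LFD value, though the gap was narrow, and Kif11 rose by 0.84 (SE 0.22, adjusted p 0.012). It was above background on only 2 of 4 LFD arrays. Bub1b, a spindle checkpoint kinase, measured −6.70, −7.23, −6.74 and −7.10 in LFD and −3.51, −5.89, −5.50 and −6.01 in HFD mice. HFD mouse 1 stood far above the rest, the groups did not overlap, and the rise was 1.72 (SE 0.49, adjusted p 0.019). Bub1b was above background on 1 of 4 LFD arrays, so that the LFD level is close to the limit of the array. Foxm1, the activator of mitotic genes, measured −3.07, −3.23, −3.15 and −3.23 in LFD and −2.77, −2.75, −2.27 and −2.52 in HFD mice. The groups were apart, the rise was 0.59 (SE 0.15, adjusted p 0.010), and a second probe rose by 1.21 (adjusted p 0.0082).

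Top2a, which untangles DNA before chromosomes separate, measured −4.02, −4.39, −4.16 and −4.27 in LFD and −4.00, −3.80, −3.37 and −3.41 in HFD mice. HFD mouse 1 was level with the highest LFD mouse, and Top2a rose by 0.57 (SE 0.18, adjusted p 0.029). Ube2c, which tags mitotic proteins for destruction, measured −3.36, −3.34, −3.17 and −3.05 in LFD and −3.05, −2.69, −2.32 and −2.41 in HFD mice. It rose by 0.61 (SE 0.22, adjusted p 0.046), and its second probe by 0.92 (adjusted p 0.011). Kif20a, a motor of the dividing cell's midzone, measured −4.44, −4.61, −4.25 and −4.22 in LFD and −4.29, −3.47, −3.32 and −3.60 in HFD mice. HFD mouse 1 lay among the LFD mice, and Kif20a rose by 0.71 (SE 0.25, adjusted p 0.042). In all 3 genes HFD mouse 1 was the lowest of its group, whereas for Bub1b it was the highest.

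The other 14 mitotic genes were not called, and 13 of them were higher in HFD livers. Of all 19598 named genes 10986 were higher, and of those with a mean level between −3 and −2 or between −4 and −3, 65.6% and 72.7%. Birc5, a survival and division protein, differed by 1.26 (adjusted p 0.065), Nusap1, which bundles spindle fibres, by 0.78 (adjusted p 0.091), and Aurka by 0.61 (adjusted p 0.062). The other 2 Birc5 probes, both dimmer, gave 0.82 (adjusted p 0.19) and 0.89 (adjusted p 0.25). Mki67, the usual stain for dividing cells, differed by 0.32 (adjusted p 0.59), with LFD mouse 4 (−2.56) above all 4 HFD mice (−3.25 to −2.58). Cenpa, the histone of the centromere, was the exception at −0.28 (adjusted p 0.47). Ccnb1 gave 0.65 (adjusted p 0.093) on its brightest probe and was called on the other 2, at 1.14 (adjusted p 0.028) and 0.64 (adjusted p 0.026).

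Averaged over the 20 tested mitotic genes, the LFD mice measured −3.29, −3.55, −3.29 and −3.34 and the HFD mice −2.93, −2.80, −2.68 and −2.85. No HFD liver fell within the LFD range for these 20 genes. Their median difference was 0.52, against 0.07 for G1 genes and 0.08 for all named genes. It stayed positive under each scaling: 0.30 under quantile normalization (all genes 0.00), 0.43 with arrays scaled to probes above background throughout (all genes −0.02) and 0.96 after normexp (all genes 0.38). The means of 43 other mitotic genes, from the wider list read below, overlapped. They were −2.68 to −2.37 in LFD and −2.38 to −2.22 in HFD mice, with a median difference of 0.24.

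Markers of other cells were read in 9 lists, and the list means of LFD and HFD mice stood apart for 2 of them. The mean of 8 hepatocyte genes was 5.47 to 5.70 in LFD and 5.14 to 5.37 in HFD mice, with 7 of 8 lower in HFD and 1 called, Cps1 of the urea cycle, which fell by −1.24 (adjusted p 0.005). The mean of 8 granulocyte precursor genes was −1.71 to −1.48 in LFD and −1.39 to −1.02 in HFD mice, with 7 of 8 higher and a median difference of 0.37, but the 1 called, Elane, fell by −0.48 (adjusted p 0.034). Single markers of other lists differed as well. Of 8 erythroid genes, 5 of them higher, Rhag rose by 0.79 (adjusted p 0.0062) and Trim10 by 0.72 (adjusted p 0.0086). Timd4 fell by −0.80 (adjusted p 0.038) among 8 macrophage genes, of which 1 was higher. Among 6 stellate genes 1 was called, higher, and among 6 cholangiocyte genes 2, 1 in each direction. Of 8 T and NK cell genes Cd8a rose by 1.42 (adjusted p 0.0083) and Klrb1c by 0.59 (adjusted p 0.0095), and of 7 B cell and plasma cell genes Blk (0.86), Cd79a (0.70) and Mzb1 (0.52) rose. Others on these lists pointed down without a call, such as Cd3g (−0.76, adjusted p 0.095), Cd2 (−0.58, adjusted p 0.15) and Ncr1 (−0.17) of T and NK cells and Jchain (−0.89, adjusted p 0.21) of plasma cells. The mean of each list overlapped between LFD and HFD mice, from −3.48 to −3.08 against −3.21 to −2.99 for T and NK cells and from −3.33 to −2.88 against −3.01 to −2.66 for B cells. The part of these cells in the mitotic difference was not tested.

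The difference between HFD and LFD moved with the intensity of a probe for all genes. Named genes with a mean level between −1 and 0 had a median difference of 0.00, those between −3 and −2 of 0.21, those between −4 and −3 of 0.29 and those under −5 of 0.44, while genes above 4 had −0.25. The mitotic genes have mostly dim probes, with a median mean level of −2.89, against −0.81 for G1 and −1.09 for S genes. Of the mitotic genes that rose, Foxm1 (0.59) and Ube2c (0.61) lie in the band whose median was 0.21, Top2a (0.57) in that of 0.29 and Kif11 (0.84) and Bub1b (1.72) in that of 0.44. The part of intensity in the mitotic difference was not tested.

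**Figure D2:**
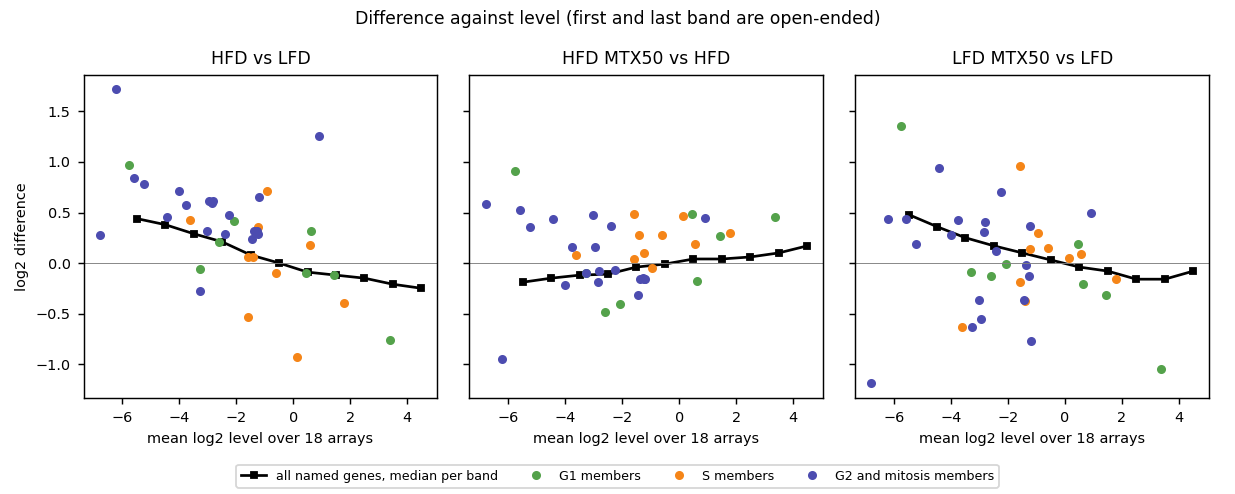
Log2 difference (vertical) against the mean log2 level over 18 arrays (horizontal) for the 38 tested genes, coloured by phase, in 3 comparisons. The black line joins the medians of all named genes in bands of level, from 0.44 in the dimmest band to −0.25 in the brightest in HFD against LFD, and most mitotic points lie above it there, whereas the line runs the other way in HFD MTX50 against HFD.

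Mice of the HFD and LFD groups did not overlap for 18 of the 38 genes, 15 higher and 3 lower, beside 40.3% of all named genes (24% higher, 16.2% lower), and 10 of the 18 were mitotic genes, all higher. When the slide entered as a random block, limma called 0 members (1.95% of all named genes), after normexp also 0 (0.0102% of all), and under quantile normalization 4 of the 38. At an unadjusted p below 0.05 the random block left 13 members and normexp 7. Without HFD mouse 3 the count was 3, without HFD mouse 4 it was 4, without LFD mouse 2 it was 5 and without LFD mouse 4 it was 7, whereas Mcm5 and Foxm1 were called whichever of the 18 arrays was left out.

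**Figure D3:**
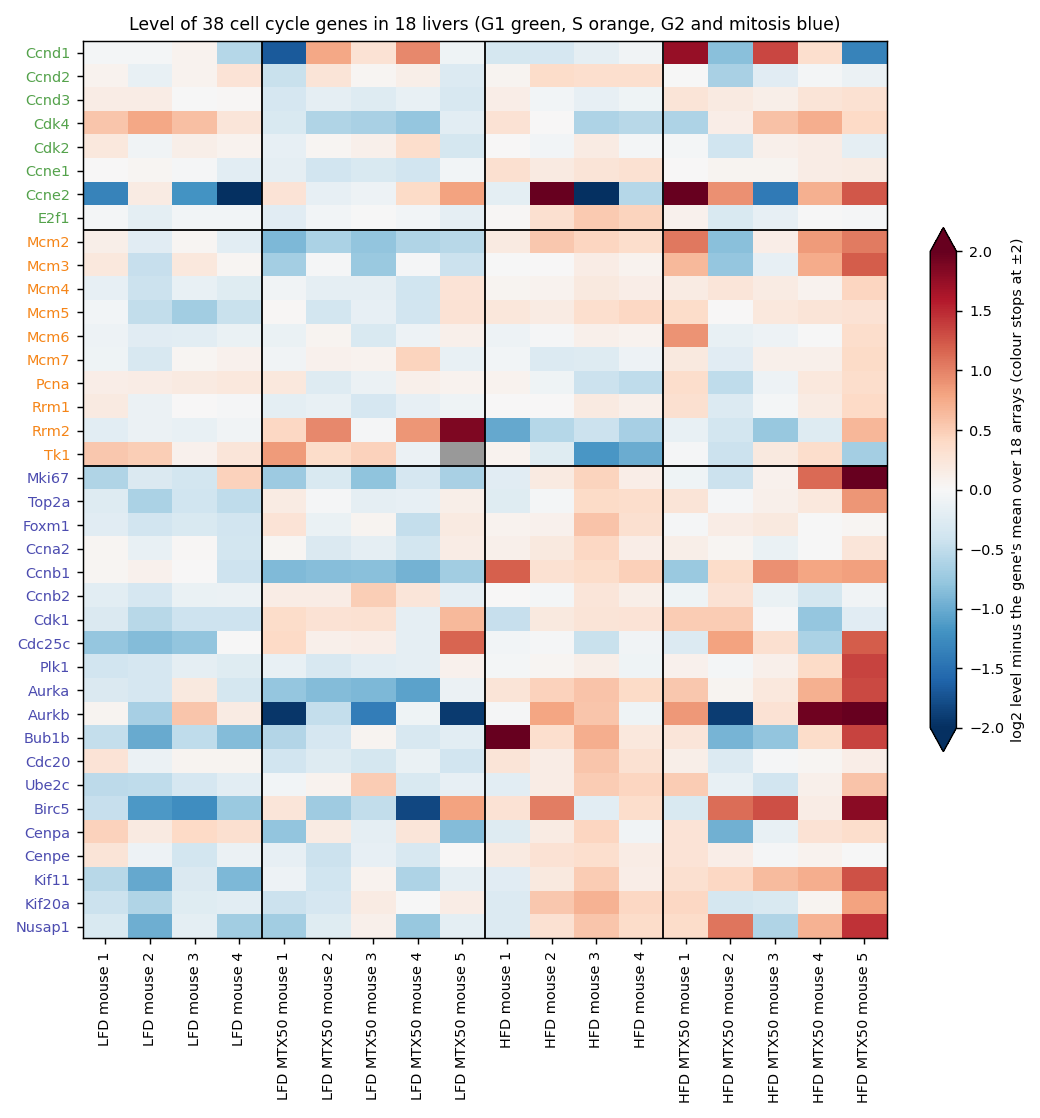
Level of each of the 38 tested genes (rows; names coloured green for G1, orange for S, blue for G2 and mitosis) in each of the 18 livers (columns), as the log2 difference from the gene's mean over all arrays; the colour stops at ±2 and the grey cell (Tk1, LFD MTX50 mouse 5) has no value. The mitotic rows are mostly blue in LFD and red in HFD livers, and HFD MTX50 mouse 5 is the reddest column for mitotic genes.

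The second question was what methotrexate did in obese mice. HFD MTX50 livers differed from HFD livers for 2 of the 38 genes, both of G1: cyclin D3 (Ccnd3) rose and E2f1 fell. That is 5.26% of members, beside 11% of all named genes (4.83% higher, 6.13% lower). limma called 0 of 10 S genes (0 at an unadjusted p below 0.05) and 0 of 20 mitotic genes (2 at an unadjusted p below 0.05, 1 in each direction), and the methods' t-test with Benjamini-Hochberg adjustment called 0 members. With a change of at least 2-fold asked for as well limma called 0 of the 38, beside 0.975% of all named genes, and at an unadjusted p up to 0.015 it was 0 beside 1.32%.

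Ccnd3 measured 1.56, 1.38, 1.27 and 1.35 in HFD and 1.69, 1.61, 1.55 and 1.69 with 1.74 in HFD MTX50 mice 1 to 5. HFD mouse 1 lay at the lower edge of the treated mice, and the rise was 0.27 (SE 0.08, adjusted p 0.046). A second Ccnd3 probe differed by −0.09 and was not called. E2f1 measured −2.05, −1.75, −1.55 and −1.62 in HFD and −1.99, −2.38, −2.23, −2.07 and −2.10 in HFD MTX50 mice. HFD mouse 1 lay among the treated mice, and E2f1 fell by −0.41 (SE 0.11, adjusted p 0.026), but after normexp the difference was 0.22 and not called. The treated mice (−2.38 to −1.99) lay around the LFD mice (−2.27 to −2.11). Ccnd2, another D cyclin, came next, at −0.48 (adjusted p 0.053), with all 5 treated mice (−3.26 to −2.62) below the 4 HFD mice (−2.55 to −2.25).

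The same 4 HFD mice enter this comparison and that of HFD against LFD, so that the 2 are not independent. Of the 10 genes called higher in HFD than in LFD livers, E2f1 alone was called with treatment on its brightest probe. The mitotic ones differed by Foxm1 −0.19 (adjusted p 0.35), Bub1b −0.95 (adjusted p 0.18), Top2a 0.16 (adjusted p 0.53), Kif11 0.52 (adjusted p 0.10), Ube2c −0.08 (adjusted p 0.81) and Kif20a −0.22 (adjusted p 0.54). The others were Ccne1 at −0.18 (adjusted p 0.17), Mcm4 at 0.10 (adjusted p 0.60) and Mcm5 at −0.05 (adjusted p 0.82). The second, dimmer Foxm1 probe was called, at −0.91 (adjusted p 0.040), while the second probes of Ccne1 (−0.35) and Ube2c (0.12) were not. The mitotic median was −0.07 (all genes −0.04), 0.65 after normexp (all genes 0.39) and 0.00 under quantile normalization, and the S median was 0.23. Cdc20, the activator of the anaphase ligase, differed by −0.32 (adjusted p 0.066). Mice of the 2 groups did not overlap for 3 genes, all lower with treatment, beside 11.4% of all named genes (5.23% higher, 6.21% lower). Within slide 5, the only one to hold both groups, the medians were 0.04 for G1, 0.10 for S and −0.23 for mitotic genes. With the slide as a fixed block 1 member was called, without HFD mouse 2, 3 or 4 the count was 0. It was 1 after leaving out any LFD mouse, mouse 2 of LFD MTX50, or mouse 4 or 5 of HFD MTX50.

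For S and mitotic genes, though not for G1 genes, the mice of the HFD MTX50 group were spread wider than those of the other groups. The SD of the mitotic mean was 0.38 there and 0.10 to 0.12 elsewhere, and that of the G1 mean 0.23, beside 0.24 in HFD mice. HFD MTX50 mouse 5 stood at −2.12 in the mitotic mean, and mice 1 to 4 at −3.07 to −2.77. LFD mice covered −3.55 to −3.29 and HFD mice −2.93 to −2.68, so that the wider mitotic spread lay with that 1 mouse. The hepatocyte mean was spread wider too (SD 0.19, beside 0.10 to 0.11), that of T and NK cell genes not (0.21, beside 0.10 to 0.23). Over all tested probes, arrays correlated with their group at a mean r of 0.979 to 0.984 in HFD MTX50 mice. It was 0.99 to 0.993 in HFD, 0.986 to 0.989 in LFD and 0.982 to 0.989 in LFD MTX50 mice. The mean over the 10 S genes was −0.91, −0.89, −0.94 and −0.96 in HFD mice, with an SD of 0.03, and −0.47, −1.18, −0.89, −0.60 and −0.41 in HFD MTX50 mice, with an SD of 0.32. Mice 1, 4 and 5 lay above all 4 HFD mice and mouse 2 below them. Mcm2, of the helicase, measured −3.45, −3.09, −3.19 and −3.28 in HFD and −2.57, −4.46, −3.49, −2.77 and −2.58 in HFD MTX50 mice. Mcm3, another subunit, measured −1.41, −1.39, −1.26 and −1.34 in HFD and −0.76, −2.18, −1.56, −0.66 and −0.19 in HFD MTX50 mice. Mice 1, 4 and 5 were again the high ones, and these were also the mice in which Cdc6 was above background. Over the group the differences were 0.08 (adjusted p 0.88) for Mcm2 and 0.28 (adjusted p 0.56) for Mcm3, with HFD MTX50 mice on both sides of the HFD range.

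HFD MTX50 mouse 5 had the highest mitotic signal of the 18 livers. Its mean over the 20 mitotic genes was −2.12, against −2.89, −3.07, −2.98 and −2.77 in mice 1 to 4 of its group. It lay above its 4 group mates for 15 of 20 mitotic, 5 of 10 S and 2 of 8 G1 genes, beside 22.1% of the 19581 named genes with a value in all 5 mice. For 11 mitotic, 3 S and 1 G1 genes it was the highest of all 18 livers, counts for which the share over all named genes was not taken. Its array also had the lowest 75th percentile of the 18, at 1202.7, from which its levels are measured. The part of this scaling in the mitotic signal of mouse 5 was not tested. Mki67 measured −0.65 in mouse 5 against −3.46 to −1.90 in the others of its group, Plk1 −1.05 against −2.44 to −2.02, and Aurka −1.62 against −2.89 to −2.23. Aurkb, which corrects chromosome attachment, measured −3.54 in mouse 5 and −4.85 in mouse 4, and was not above background in LFD MTX50 livers (0 of 5). Without mouse 5, the medians of HFD MTX50 against HFD were 0.09 for G1, 0.10 for S and −0.08 for mitotic genes, and 1 member was called.

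Markers of blood cell precursors were highest in mouse 5 and lowest in mouse 1, which was among the high mice for S genes. The mean of 8 granulocyte precursor genes (such as Mpo and Prtn3, enzymes of their granules) was −1.39 to −1.02 in HFD mice and −1.36, −1.11, −0.68, −0.41 and 1.57 in HFD MTX50 mice 1 to 5. Mpo itself reached 2.76 in a HFD MTX50 liver, with HFD livers at −2.87 to −2.68. limma called 0 of the 8 in HFD MTX50 against HFD, and 2 were higher at an unadjusted p below 0.05. Ngp, a late granule gene, was above background on 0 of 4 HFD and 3 of 5 HFD MTX50 arrays. The mean of 8 erythroid genes was −3.54 to −3.43 in HFD mice and −3.92, −3.52, −2.85, −1.95 and −1.78 in HFD MTX50 mice 1 to 5. Of these, Trim10 fell (−0.70, adjusted p 0.017) and Alas2 differed by −1.25 (adjusted p 0.073). Epb42 and Rhd, both of the red cell membrane, weigh in this mean but were above background on 0 of 4 HFD arrays. In HFD MTX50 livers they were above it on 4 and 3 of 5 arrays, and both passed the filter on dim probes only through that group. No p-value is therefore given for Epb42, and its rise is a bound. It was at least 2.45-fold higher in HFD MTX50 livers, with HFD taken at the lowest signal well above background on each array. The mean of 8 macrophage genes was 0.89 to 1.40 in HFD mice and 2.04, 1.51, 1.47, 2.12 and 2.16 in HFD MTX50 mice, with 0 of 8 called by limma and 5 higher at an unadjusted p below 0.05. The 8 hepatocyte genes, such as albumin, averaged 5.14 to 5.37 in HFD and 5.08 to 5.6 in HFD MTX50 mice. Whether precursor cells carry the mitotic signal was not tested.

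**Figure D4:**
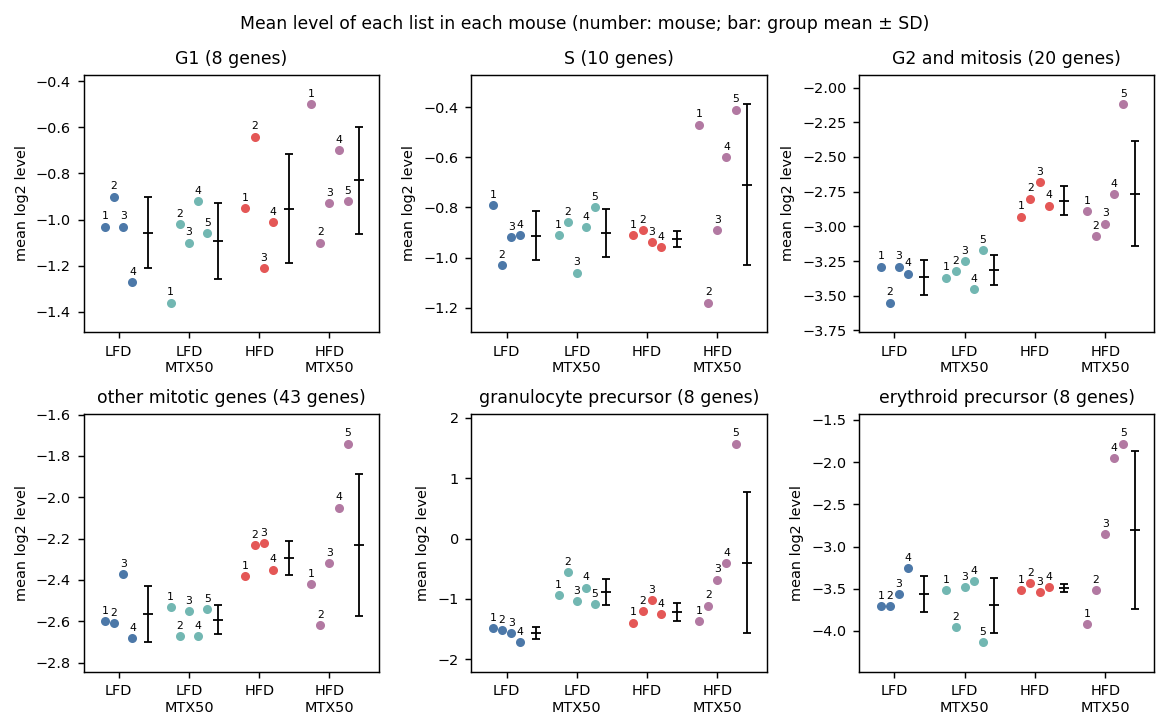
Mean log2 level of the tested genes of 6 lists in each mouse (points, numbered by mouse), with the group mean ± SD as bars beside each group of 4 or 5 mice. HFD livers sit above LFD livers for the 20 mitotic members, while these groups overlap for the 43 other mitotic genes. HFD MTX50 mouse 5 is the highest point of its group for the mitotic, S, granulocyte precursor and erythroid lists.

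To find the genes whose pattern is most like that of the mitotic genes, each probe was set against the mean of the other mitotic members over the 18 arrays, after group means were taken away. These correlations describe variation between mice of one group, they share the arrays and their scaling, and HFD MTX50 mouse 5 weighs in them. Among members, Plk1 gave r = 0.92 (0.76 without that mouse), Aurka 0.81 (0.72), Top2a 0.79 (0.61), Kif11 0.75 (0.66) and Mki67 0.74 (0.40). Of the S genes, Rrm1 gave 0.69 and Mcm3 0.68. Others did not follow, such as Ccnb2 (−0.16), Tk1 (−0.36) and Ccnd1 (−0.40). Outside the set, the 5 genes most like the mitotic mean were Dsel (0.94), Gfi1 (0.92), Fam216b, Klhdc4 and Zfp773 (0.91 each). Gfi1 encodes a repressor active in blood cell precursors. In all, 97 of 19598 genes (0.495%) had r above 0.8. Of the 8 granulocyte precursor genes, Prtn3 (0.87), Mpo (0.85), Camp (0.84) and Chil3 (0.82) were among them. The others of that list gave 0.74 (Ctsg), 0.72 (Ltf), 0.62 (Ngp) and −0.06 (Elane). Of mitotic genes outside the set, Cdca5 (0.89) and Anln (0.87) were above 0.8, while Racgap1 gave −0.49. Values without HFD MTX50 mouse 5, whose granulocyte precursor mean was 1.57, are given for members only.

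The third question was what methotrexate did in lean mice. LFD MTX50 livers differed from LFD livers for 8 of the 38 genes, 4 higher and 4 lower. Rrm2, Cdk1, Cdc25c and Ccnb2 rose and Cdk4, Ccnd3, Ccnb1 and Cdc20 fell, so that mitotic genes moved in either direction. The 21.1% of members called stands beside 28.1% of all named genes (17.6% higher, 10.5% lower). With a change of at least 2-fold asked for as well, Cdk4 alone of the 38 was called, beside 4.75% of all named genes, and an unadjusted p up to 0.015 with a 2-fold change also took 1 of the 38, beside 4.75%.

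In G1, Cdk4 measured 3.93, 4.15, 3.98 and 3.63 in LFD and 3.08, 2.78, 2.73, 2.61 and 3.17 in LFD MTX50 mice. All 5 treated mice lay below the LFD mice, and Cdk4 fell by −1.05 (SE 0.24, adjusted p 0.0074), while its other probes differed by 0.16 and 0.06 without a call. Ccnd3 measured 1.58, 1.58, 1.42 and 1.46 in LFD and 1.10, 1.26, 1.17, 1.28 and 1.12 in LFD MTX50 mice. The groups were apart and the fall was −0.32 (SE 0.08, adjusted p 0.011), with a second probe at 0.06 and not called. Ccne1 differed by −0.21 (adjusted p 0.080) on its brightest probe, while its second probe was called in the other direction, at 0.53 (adjusted p 0.027). Of all S genes only Rrm2, the regulated subunit of ribonucleotide reductase, was called by limma. It measured −1.80, −1.71, −1.73 and −1.65 in LFD and −1.17, −0.62, −1.61, −0.70 and 0.28 in LFD MTX50 mice. The treated mice all lay higher, mouse 3 only just, and the rise was 0.96 (SE 0.30, adjusted p 0.029), a 1.94-fold difference. Mcm2 differed by −0.63 (adjusted p 0.099) with all treated mice (−4.52 to −4.18) below the LFD mice (−3.85 to −3.50).

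Among mitotic genes, Cdc20 measured −1.19, −1.57, −1.40 and −1.40 in LFD and −1.85, −1.72, −1.81, −1.60 and −1.84 in LFD MTX50 mice. It was lower in every treated mouse and fell by −0.37 (SE 0.11, adjusted p 0.020), though after normexp the difference was 0.07 and not called. Cdc25c, the phosphatase that activates Cdk1, measured −5.22, −5.30, −5.23 and −4.45 in LFD and −4.04, −4.33, −4.30, −4.62 and −3.27 in LFD MTX50 mice. LFD mouse 4 lay within the treated range, and the rise was 0.94 (SE 0.33, adjusted p 0.043). Ccnb2, a B cyclin, measured −1.46, −1.59, −1.39 and −1.37 in LFD and −1.11, −1.11, −0.76, −1.01 and −1.43 in LFD MTX50 mice. Mouse 5 overlapped the LFD mice, and Ccnb2 rose by 0.37 (SE 0.13, adjusted p 0.045).

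The probes of Cdk1 and Ccnb1 went against each other in this comparison. On the brightest probe, Cdk1, the kinase of mitotic entry, measured −2.54, −2.80, −2.67 and −2.67 in LFD and −1.89, −1.96, −1.95, −2.43 and −1.60 in LFD MTX50 mice, a rise of 0.70 (SE 0.24, adjusted p 0.036). The other 2 Cdk1 probes gave −1.10 (adjusted p 0.074) and −1.03 (adjusted p 0.18), with every treated mouse below every LFD mouse on both. The brighter of them measured −3.58, −3.74, −3.42 and −3.32 in LFD and −4.89, −4.44, −4.97, −4.46 and −4.32 in LFD MTX50 mice. These 2 probes also followed the mitotic mean between mice (r = 0.80 and 0.67), which the brightest did not (−0.20). Ccnb1, the partner of Cdk1, measured −1.15, −1.11, −1.18 and −1.61 in LFD and −2.08, −2.04, −2.02, −2.13 and −1.88 in LFD MTX50 mice on its brightest probe, a fall of −0.77 (SE 0.27, adjusted p 0.044). Its other probes gave 0.88 (adjusted p 0.060) and 0.47 (adjusted p 0.070), in the other direction. With the mean of a gene's probes, Cdk1 differed by −0.48 and Ccnb1 by 0.19, neither called. Which transcript each probe reads is not given in the sources used here.

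**Figure D5:**
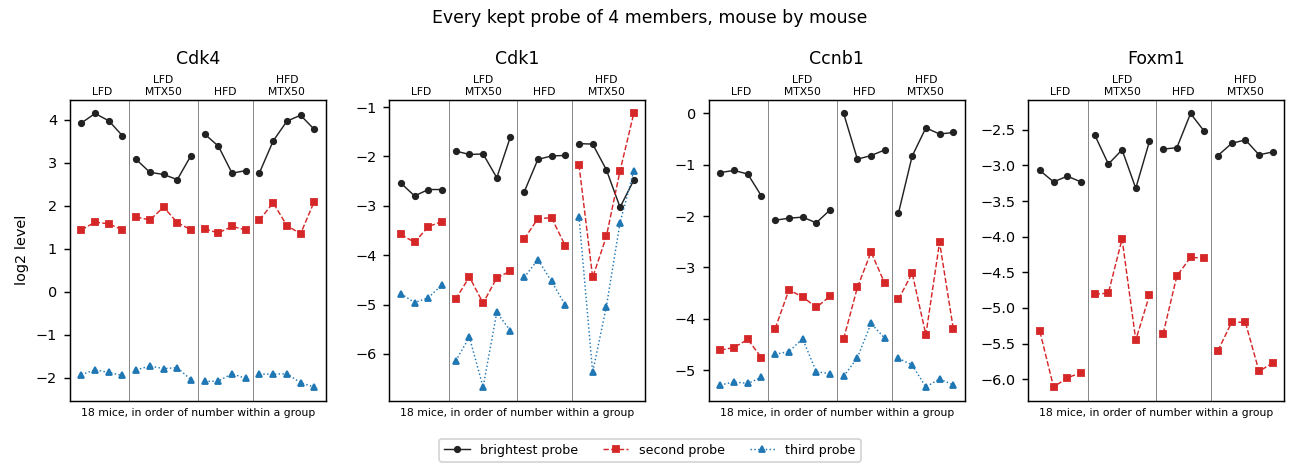
Log2 level of every tested probe of Cdk4, Cdk1, Ccnb1 and Foxm1 in the 18 livers, in order of mouse number within each group; lines join mice of one group to guide the eye. The brightest Cdk4 probe is lower in LFD MTX50 than in LFD livers while the other 2 differ by 0.16 and 0.06. The brightest Cdk1 and Ccnb1 probes move against their dimmer ones there. The 2 Foxm1 probes differ between groups in the same direction, the dimmer one by more.

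The mitotic median in LFD MTX50 against LFD livers was 0.23 (all genes 0.10), but it was −0.09 under quantile normalization and 0.93 after normexp (all genes 0.47). Dim probes were higher for all genes here too, with a median of 0.17 for levels between −3 and −2 and of 0.48 under −5. Aurka differed by −0.55 (adjusted p 0.076) and Cenpa by −0.63 (adjusted p 0.088), while Top2a differed by 0.43 (adjusted p 0.064) and Foxm1 by 0.31 (adjusted p 0.10). The second, dimmer Foxm1 probe was called, with a rise of 1.05 (adjusted p 0.011). The mean over the mitotic genes was −3.37, −3.32, −3.25, −3.45 and −3.17 in LFD MTX50 mice and overlapped the LFD mice. Markers of other cells moved here too. The granulocyte precursor mean was −1.71 to −1.48 in LFD and −1.08 to −0.56 in LFD MTX50 mice, without overlap. Of its 8 genes Elane fell by −0.56 (adjusted p 0.014). Ngp was at least 2.45-fold higher, a bound since 0 of 4 LFD arrays showed it above background. Its probe passed the filter only through treated livers, so no p-value is given. The erythroid mean overlapped (−3.71 to −3.26 and −4.13 to −3.41), with Alas2, the first enzyme of haem synthesis in red cells, falling by −2.99 (adjusted p 0.00089) and Klf1 and Rhag rising by 0.69 (adjusted p 0.040) and 0.57 (adjusted p 0.018). Of 8 macrophage genes Cd68 fell by −0.94 (adjusted p 0.017) and Csf1r by −0.54 (adjusted p 0.040). Hepatocyte means were 5.47 to 5.70 in LFD and 5.68 to 5.90 in LFD MTX50 mice. The part of these cells in the changes of LFD MTX50 livers was not tested. Groups of mice did not overlap for 8 genes, 3 higher and 5 lower, beside 29.1% of all named genes (17.6% higher, 11.5% lower). With the slide as a random block or after normexp, 0 members were called by limma (7 and 8 at an unadjusted p below 0.05). Without LFD mouse 1, 2 or 3 or LFD MTX50 mouse 2 the count was 3, without LFD MTX50 mouse 1 or 3 it was 4, and without HFD mouse 2 or 4, which enter only through the shared spread, it was 5.

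The last comparison asked whether methotrexate acted differently under the 2 diets, as the effect in HFD mice minus that in LFD mice. The difference was called for 3 of 38 genes, 7.89%, beside 26.8% of all named genes (8.66% higher, 18.1% lower). With a difference of at least 2-fold asked for as well, Cdk4 alone of the 38 was called, beside 7.94% of all named genes, and an unadjusted p up to 0.015 with a 2-fold difference also took 1 of the 38, beside 8.05%. Ccnd3 rose with treatment in HFD and fell in LFD mice, a difference of 0.59 (SE 0.12, adjusted p 0.0058). Cdk4 gave 1.52 (SE 0.35, adjusted p 0.0082), from 0.46 in HFD mice (adjusted p 0.20) and −1.05 in LFD mice. HFD MTX50 mice measured 2.77, 3.51, 3.97, 4.11 and 3.78 for Cdk4, so that mouse 1 was as low as the LFD MTX50 mice and the others were not. The second Ccnd3 probe (−0.15) and the other Cdk4 probes (0.13 and −0.06) were not called. Ccnb2 gave −0.53 (SE 0.19, adjusted p 0.046), and kept its call in only 3 of the 18 fits that leave out an array. On probes other than the brightest, the second Foxm1 probe gave −1.96 (adjusted p 0.0056), the third Ccnb1 probe −0.97 (adjusted p 0.016), the second Ccne1 probe −0.88 (adjusted p 0.015) and the second Cdk1 probe 1.87 (adjusted p 0.040). The count was 9 without HFD MTX50 mouse 2, 6 without HFD mouse 1 and 5 without HFD MTX50 mouse 1.

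A wider list of 121 cell cycle genes, of which 119 were tested, was read in the same way, and up to 5 called genes of each kind are named by size of change. In HFD against LFD 24 were called (20.2%, beside 28.3% of all named genes), 12 in each direction. Inhibitors fell or were not called: Cdkn1b (p27), which holds cyclin E and Cdk2 in check, fell by −0.63 (adjusted p 0.0065), Btg1 by −0.62 (adjusted p 0.032) and the pocket protein Rbl2 by −0.49 (adjusted p 0.010). E2f4, the E2F of resting cells, fell by −1.05 (adjusted p 0.0060), E2f5 by −0.63 (adjusted p 0.0035) and the phosphatase Cdc25a by −0.61 (adjusted p 0.024), whereas E2f8 rose by 0.63 (adjusted p 0.025). Of other mitotic genes, 6 of 43 rose (beside 18% of all named genes), among them the kinase Melk (0.76, adjusted p 0.0076), Cdkn3 (0.68, adjusted p 0.0090), the spindle bundler Prc1 (0.67, adjusted p 0.0048) and the condensin Ncapg (0.63, adjusted p 0.0087), and Cks2, which binds Cdk1, fell by −1.16 (adjusted p 0.0042). Uhrf1, which copies DNA methylation marks, rose by 0.75 (adjusted p 0.0086) and Gins2 of the helicase by 0.74 (adjusted p 0.011), while its partner Gins3 fell by −0.60 (adjusted p 0.0043).

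In HFD MTX50 against HFD 11 of the 119 were called (9.24%, beside 11% of all named genes), 7 higher and 4 lower. Cdkn1b rose by 0.76 (adjusted p 0.0068), Cdc25a by 0.89 (adjusted p 0.0092), E2f4 by 0.85 (adjusted p 0.023), Cdt1, which loads the helicase, by 0.79 (adjusted p 0.047) and the growth regulator Myc by 1.48 (adjusted p 0.037). Gins2 fell by −0.67 (adjusted p 0.026), E2f7 by −0.65 (adjusted p 0.021) and Spc24 of the kinetochore by −1.46 (adjusted p 0.0080). After normexp Gins2 and E2f7 stood at 0.55 and 0.31 without a call. Cdkn1b, E2f4, Cdc25a and Gins3 had fallen and Gins2 had risen in HFD against LFD, but both comparisons use the same 4 HFD mice.

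In LFD MTX50 against LFD 25 of the 119 were called (21%, beside 28.1% of all named genes), 10 higher and 15 lower. Rfc4 of the clamp loader fell by −1.37 (adjusted p 0.0079), Mcm10 by −1.35 (adjusted p 0.020), E2f2 by −1.32 (adjusted p 0.037), Cdk6, the sister kinase of Cdk4, by −1.06 (adjusted p 0.013) and Spc24 by −1.06 (adjusted p 0.011). Cdk6 stood at 1.29 after normexp, not called. Espl1, which cuts sister chromatids apart, rose by 1.41 (adjusted p 0.022), Cdkn3 by 0.86 (adjusted p 0.0024) and Uhrf1 by 0.78 (adjusted p 0.0050). Between the treatment effects 26 differed (21.8%, beside 26.8% of all named genes), 16 higher and 10 lower, led by Rfc4 (1.81, adjusted p 0.012), Cks2 (1.54, adjusted p 0.0057) and E2f4 (1.40, adjusted p 0.0071).

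Tyms differed by −0.32 in HFD against LFD, by 0.36 in HFD MTX50 against HFD and by −0.31 in LFD MTX50 against LFD, none called, and its treatment effects differed by 0.67 (adjusted p 0.043). Cdkn1a (p21), a cycle inhibitor that p53 induces, averaged −4.00 ± 0.44 (SD, n = 4) in LFD, −2.0 ± 1.07 (n = 5) in LFD MTX50, −3.62 ± 0.62 (n = 4) in HFD and −2.61 ± 1.86 (n = 5) in HFD MTX50 livers. The treated mice of either diet spread widely, and neither the difference in LFD mice (2.0, adjusted p 0.051) nor that in HFD mice (1.01, adjusted p 0.36) was called.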

How the data were processed

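Liver RNA of 18 mice was hybridised to 18 one-colour Agilent arrays, 1 per mouse. The sample records name Trizol, RNeasy columns and a kit for low RNA input, while the study's methods name RNeasy and the Quick Amp kit. Spots were read with Agilent Feature Extraction 10.7.3.1. The deposited intensities are its processed signals on a linear scale: per the file headers background subtraction and detrending of each array were done by the software, and arrays were not scaled against each other. The deposited table of the series holds background-subtracted signal intensity of the same scans and served as an alternative.

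For this report log2 intensity minus the array's 75th percentile was used, the usual scaling in GeneSpring, which the authors used. Control spots and outlier spots (124 to 294 per array) were left out and spots of a probe averaged. Tk1 lacks a value in LFD MTX50 mouse 5 for this reason, and its fit used the other 17 arrays. Probes were named through RefSeq GRCm38.p6 by accession (28025 of 39429 probes, 71.1%); coordinates are those of that assembly, and probe sequences were not used here. limma 3.58.1 in R 4.3.3 fitted 1 model with the means of the 4 groups to the 35739 probes well above background on at least 4 arrays, with empirical Bayes tests and Benjamini-Hochberg adjustment over these probes (prior degrees of freedom 2.77). The number of arrays limits the precision. Labels call the mice individual replicates, so the p-values measure the spread between mice.

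The members, the gene lists and the comparisons were chosen with earlier results of these data known. All 40 members are named; of other lists, at most 5 called genes per comparison by size of change, besides Tyms and Cdkn1a, and the 5 non-members most like the mitotic mean. The 16 alternatives were normexp on the median and local background signals (offset 50), quantile and median scaling, the table of the series, outlier spots kept, 2 other filters on dim probes, robust variances with an intensity trend, a fit to the compared groups alone, the methods' t-test, 2 rules with a 2-fold change, slide as a random or fixed block, replicate block and mean of a gene's probes; each array was also left out in turn. The procedure was tested on simulated data.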

Additional observations from a re-analysis of the deposited data

Results flagged for a closer look

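Within groups of 4 or 5 mice, 7 single values stood apart from the rest by Dixon's test, out of 164 group and gene or phase combinations tested; chance alone sets about 1 in 20 groups apart. LFD mouse 4 was low for Ccnb1 (−1.61, next −1.18) and high for Cdc25c (−4.45, next −5.22). HFD mouse 1 was low for Ccnd2 (−2.55, next −2.28) and for Cdk1 (−2.72, next −2.06), and HFD mouse 3 was low for Cdc25c (−4.89, next −4.51). LFD mouse 2 was low for E2f1 (−2.27, next −2.13) and LFD mouse 3 was high for Aurka (−2.75, next −3.24). HFD MTX50 mouse 5 was not set apart by this test, for any single gene or for the mean of a phase.

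The effect of methotrexate differed between the diets, by the interaction term of the limma model, for Ccnd3 (0.59, adjusted p 0.0058), Cdk4 (1.52, adjusted p 0.0082) and Ccnb2 (−0.53, adjusted p 0.046). Ccnd3 and Cdk4 kept this call whichever of the 18 arrays was left out, on their brightest probes only.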

How the results depend on the processing

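In the order HFD against LFD, HFD MTX50 against HFD, LFD MTX50 against LFD, and then the difference between the effects of treatment, 12, 2, 8 and 3 members were called. After normexp the counts were 0, 0, 0 and 0 (7, 0, 8 and 2 at an unadjusted p below 0.05; 0.0102%, 0%, 1.73% and 0% of all named genes called), and normexp also moved the median of all genes to 0.38, 0.39 and 0.47 in the first 3. An adjusted p with a 2-fold change left 1, 0, 1 and 1, as did an unadjusted p up to 0.015 with a 2-fold change. Taking the slide as a random block they were 0, 1, 0 and 2. For HFD against LFD the count was 4 under quantile normalization, 7 with scaling to the median of probes above background throughout and 22 with only the 2 groups compared. For HFD MTX50 against HFD it was 1 from the table of the series, without the filter on dim probes, with slides as fixed blocks and with the mean of a gene's probes, and 0 with only the 2 groups compared and by the methods' t-test with adjustment. The scanner files used here hold no mean signal, so normexp ran on the median signal.

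Leaving out 1 array moved the counts between 3 and 14, 0 and 3, 3 and 10, and 2 and 9. Direction turned after normexp for E2f1 in HFD MTX50 against HFD (0.22) and Cdc20 in LFD MTX50 against LFD (0.07), and with the mean of a gene's probes for Ccnb1 (0.19) and Cdk1 (−0.48) in LFD MTX50 against LFD and for Ccne1 in the difference (−0.43, adjusted p 0.038). The cause was not tested.

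Of the other cell cycle genes, under alternatives chosen after the data were seen, 24, 11, 25 and 26 became 0, 0, 2 and 0 after normexp and 3, 8, 1 and 7 where slides were random blocks. After normexp the difference turned for Rbl2 (0.22), Cdc25a (0.30), Ccnh (0.13), E2f5 (0.32) and Rrm2b (0.60) in HFD against LFD, for E2f7 (0.31), Gins2 (0.55) and Orc4 (0.43) in HFD MTX50 against HFD, and for Rbl2 (0.43), Cdk6 (1.29) and Ccnh (0.24) in LFD MTX50 against LFD, none of them called there.

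Mouse numbers are shared between groups but do not pair the mice: deviations of 25 same-numbered pairs correlated at −0.31 to 0.25, with 6 above 0.1. With the replicate block the counts were 13, 0, 6 and 3.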
